A study of Mus musculus with 12 samples.

Results

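A set of 9 enzyme genes that oxidize or methylate small molecules were described in mouse gastrocnemius, the large muscle of the calf. They were Fmo1, Fmo2, Fmo5, Inmt, Adh1, Adh5, Aox1, Aldh1a1 and Aldh2, taken by gene symbol from the deposited table of TPM values (transcript abundance scaled for length and depth), which lists 10475 genes. All 9 were listed and all 9 were among the 10415 genes tested. They were selected on their TPM values at the 2 times of day, several of them being high at lights on (ZT0), with earlier results of these data known. Their difference between times is therefore given as a description with no test, and the tests below concern genotype.

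The study sequenced poly(A) RNA of gastrocnemius from C57BL/6 mice aged 8 weeks, fed chow and kept in 12 h of light and 12 h of darkness. Wild type (WT) mice were set beside transgenic (TG) mice that overexpress E4BP4 in the liver alone. E4BP4, the product of Nfil3, represses transcription and is part of the output of the circadian clock. The promoter that drives the transgene is not given in the sources used here, and muscle lies outside the tissue of overexpression. Muscle was collected at Zeitgeber time 0 (ZT0, lights on) and Zeitgeber time 12 (ZT12, lights off), giving the groups WT ZT0, TG ZT0, WT ZT12 and TG ZT12 with 3 libraries each. The labels do not say that the 3 libraries of a group came from separate mice, so p-values measure only the spread between these libraries.

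Flavin-containing monooxygenases (Fmo genes) add an oxygen atom to nitrogen or sulfur in small molecules, using NADPH. Alcohol dehydrogenases turn alcohols into aldehydes, and aldehyde dehydrogenases turn aldehydes into acids, a chain that handles ethanol, retinol and formaldehyde. Aldehyde oxidase carries a molybdenum cofactor and oxidizes aldehydes and nitrogen heterocycles. Inmt, indolethylamine N-methyltransferase, moves a methyl group from S-adenosylmethionine to amines such as tryptamine. These enzymes are best known from liver and lung, and most of them clear both dietary and endogenous compounds.

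Of the 9 genes, 4 had every ZT0 library above every ZT12 library: Adh1, Inmt, Fmo2 and Fmo1. Adh5 and Fmo5, which are close relatives of 3 of them, did not share that pattern, and neither did Aldh1a1, Aldh2 or Aox1. To show the upstream DNA of genes in the first set, bases before the start of transcription are given here 5′ to 3′ on the strand of the gene, from RefSeq windows on GRCm38.p6. Windows were found for 7 of the 9 genes. Capitals mark the letters of the glucocorticoid receptor half-site AGAACA, read here on the opposite strand. The Adh1 stretch is chr3:138277335-138277493 (plus strand), the Inmt stretch is chr6:55175044-55175240 (minus strand) and the Fmo2 stretch is chr1:162898759-162899008 (minus strand).
Adh1: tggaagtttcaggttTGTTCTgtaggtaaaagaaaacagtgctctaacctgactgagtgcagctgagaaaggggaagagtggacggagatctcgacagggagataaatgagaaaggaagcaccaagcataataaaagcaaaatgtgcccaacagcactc
Inmt: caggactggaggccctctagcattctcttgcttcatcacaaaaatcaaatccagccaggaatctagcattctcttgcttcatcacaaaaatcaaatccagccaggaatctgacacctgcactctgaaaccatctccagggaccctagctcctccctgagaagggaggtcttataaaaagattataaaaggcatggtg
Fmo2: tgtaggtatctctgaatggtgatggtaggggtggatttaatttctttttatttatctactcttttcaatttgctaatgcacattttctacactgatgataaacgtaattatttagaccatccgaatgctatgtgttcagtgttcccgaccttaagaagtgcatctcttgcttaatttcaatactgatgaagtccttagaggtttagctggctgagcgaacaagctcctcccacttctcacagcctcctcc
The Inmt stretch holds a run of 46 bases that stands in it 2 times, the second copy directly after the first. The longest such run was 9 bases in the Adh1 stretch and 8 bases in the Fmo2 stretch.

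Motifs were searched on both strands of the 10 windows of the 7 genes, each reaching from 250 bases before the start to 50 after it, and in all 32851 windows of the table. The D-box, the motif bound by E4BP4 and the PAR bZIP factors, was searched as TTATGTAA and TTACGTAA. These letters stood in 0.938% and 0.119% of all windows and in none of the 10. The E-box CACGTG of the clock activators stood in 7.15% of all windows and in 1 of the 10, that of Adh1. Its place is chr3:138277589-138277594, bases 5 to 10 after the RefSeq start and inside the first exon of Adh1 (chr3:138277494-138277736 in GENCODE M21). The 30 bases around it, chr3:138277577-138277606, are shown with the E-box in capitals.
Adh1 E-box: aaagggccagatCACGTGtgggatcagctg
The glucocorticoid receptor half-site AGAACA stood in 19.0% of all windows and in 2 of the 10. In Adh1 it lies at -235 to -230 on the opposite strand (chr3:138277350-138277355), and in the second of the 2 Fmo2 windows it lies at -125 to -120 (chr1:162898613-162898618). The full palindrome of that half-site, with a spacer of 3 bases, stood in 0.00913% of all windows, and the ROR and REV-ERB motifs AAAGGTCA and TNAGGTCA in 1.51% and 4.58%. None of these 3 stood in the 10 windows. A match describes letters in a window and not a bound site.

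Adh1 (chr3:138277645-138290691, plus strand) encodes the class I alcohol dehydrogenase, which oxidizes ethanol and retinol. Its level was 19.1, 19.1 and 20.1 TPM in WT ZT0 and 19.1, 20.1 and 19.6 TPM in TG ZT0. At ZT12 it was 8.55, 11.7 and 8.20 TPM in WT and 8.60, 9.69 and 8.08 TPM in TG. The 6 libraries of ZT0 had a level of 19.5 ± 0.476 TPM (mean and SD, n = 6), all above the libraries of ZT12 at 9.13 ± 1.37 TPM (n = 6). The ZT0 mean was 2.14-fold the ZT12 mean, 2.05-fold in WT and 2.23-fold in TG. The coefficient of variation at ZT0 was 2.44%, on 283 to 380 reads a library. At ZT12 it was 15.0%, with WT ZT12 replicate 2 the highest at 11.7 TPM. These spreads were not tested. On the log2(TPM + 1) scale, which understates folds of low genes, ZT12 minus ZT0 was -0.98 (SE 0.13) in WT and -1.08 (SE 0.13) in TG.

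Inmt (chr6:55170627-55174990, minus strand) had the largest difference of the 9 genes over both genotypes on the log2(TPM + 1) scale. It stood at 30.9, 38.3 and 25.3 TPM in WT ZT0 and at 28.4, 41.7 and 28.6 TPM in TG ZT0. At ZT12 it stood at 17.2, 10.7 and 13.4 TPM in WT and at 12.0, 12.0 and 9.81 TPM in TG. The lowest ZT0 library was 1.47-fold the highest ZT12 library, so the times did not overlap. The mean at ZT0 was 2.57-fold that at ZT12. The difference of log2(TPM + 1) was -1.14 (SE 0.20) in WT and -1.45 (SE 0.20) in TG.

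Fmo2 (chr1:162875047-162898712, minus strand), a monooxygenase best known from lung, stood at 6.65, 8.75 and 7.33 TPM in WT ZT0 and at 7.64, 8.55 and 5.70 TPM in TG ZT0. At ZT12 it stood at 3.10, 3.77 and 2.72 TPM in WT and at 1.37, 2.84 and 1.95 TPM in TG. Every ZT0 library was above every ZT12 library, and the lowest value of the 12 was in TG ZT12 replicate 1. The ZT0 mean was 2.83-fold the ZT12 mean, the largest ratio of TPM among the 9. The difference of log2(TPM + 1) was -1.03 (SE 0.21) in WT and -1.45 (SE 0.21) in TG. This size depends on the constant added before the logarithm: over both genotypes it was -1.24 with 1 TPM, -1.52 with 0.1 TPM and -0.71 with 5 TPM.

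Fmo1 (chr1:162829561-162860000, minus strand), a monooxygenase that also oxidizes hypotaurine to taurine, lies 15.0 kb from Fmo2 on the same strand. It stood at 9.58, 12.3 and 8.31 TPM in WT ZT0 and at 7.38, 10.1 and 8.81 TPM in TG ZT0. At ZT12 it stood at 4.79, 5.68 and 4.58 TPM in WT and at 3.41, 5.20 and 4.83 TPM in TG. The times again did not overlap, with a ZT0 mean 1.98-fold that of ZT12. The difference of log2(TPM + 1) was -0.87 (SE 0.18) in WT and -0.84 (SE 0.18) in TG.

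**Figure D1:**
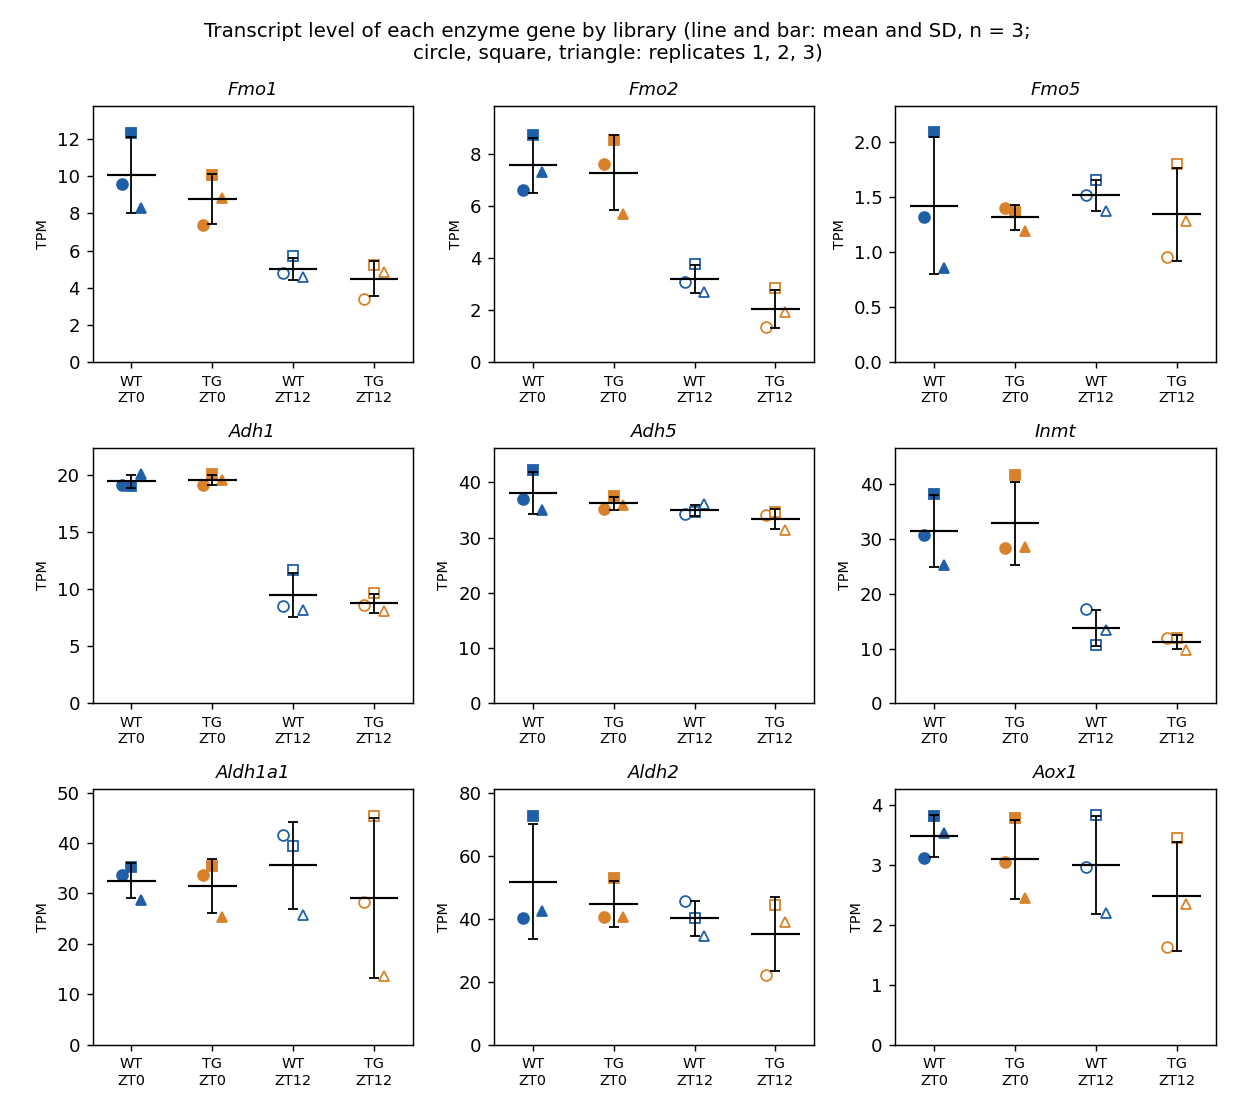
Transcript level (TPM, linear axes from 0) of the 9 genes in each of the 12 libraries, by group; filled symbols are ZT0, open symbols are ZT12, lines and bars are the mean and SD of 3 libraries. Fmo1, Fmo2, Adh1 and Inmt show 2 separate levels by time in both genotypes, while Fmo5, Adh5, Aldh1a1, Aldh2 and Aox1 overlap between times.

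The third monooxygenase, Fmo5 (chr3:97628838-97655287, plus strand), acts mainly on carbonyl compounds and not on nitrogen or sulfur. It was the lowest of the 9 genes, at 0.858 to 2.09 TPM at ZT0 and 0.956 to 1.79 TPM at ZT12, on 63 to 185 reads a library. The times overlapped fully and the difference of log2(TPM + 1) over both genotypes was 0.04 (SE 0.13). Fmo1 was accordingly 5.29 to 9.68 times the level of Fmo5 at ZT0 and 2.90 to 3.76 times at ZT12, ranges that do not overlap. Against Fmo2, Fmo1 stood at a ratio of 0.966 to 1.55 at ZT0 and 1.51 to 2.49 at ZT12, ranges that overlap slightly. The Fmo1 to Fmo2 ratio at ZT12 was 1.58 ± 0.0943 in WT and 2.27 ± 0.379 in TG (SD, n = 3 each), with no overlap between the genotypes. Among single genes 4.79% had no such overlap at ZT12, and the share among ratios was not computed. Fmo2 in TG ZT12 rested on 83, 160 and 118 reads. The ratios of Fmo1 to Fmo5 and to Fmo2 were noticed in the data and were not tested.

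Adh5 (chr3:138443093-138455499, plus strand) lies 152 kb from Adh1 on the same strand. It encodes the class III enzyme, which oxidizes the glutathione adduct of formaldehyde and reduces S-nitrosoglutathione. At ZT0 it ranged from 35.0 to 42.3 TPM and at ZT12 from 31.3 to 36.1 TPM, overlapping ranges, with a difference of log2(TPM + 1) of -0.12 (SE 0.07) over both genotypes. In TG alone its times did not overlap, at 35.2 to 37.5 TPM and 31.3 to 34.7 TPM. The ratio of Adh1 to Adh5 within a library, which cancels any scaling of the library, was 0.451 to 0.575 at ZT0 and 0.227 to 0.338 at ZT12. The lowest ZT0 ratio, in WT ZT0 replicate 2, was above the highest ZT12 ratio, in WT ZT12 replicate 2.

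**Figure D2:**
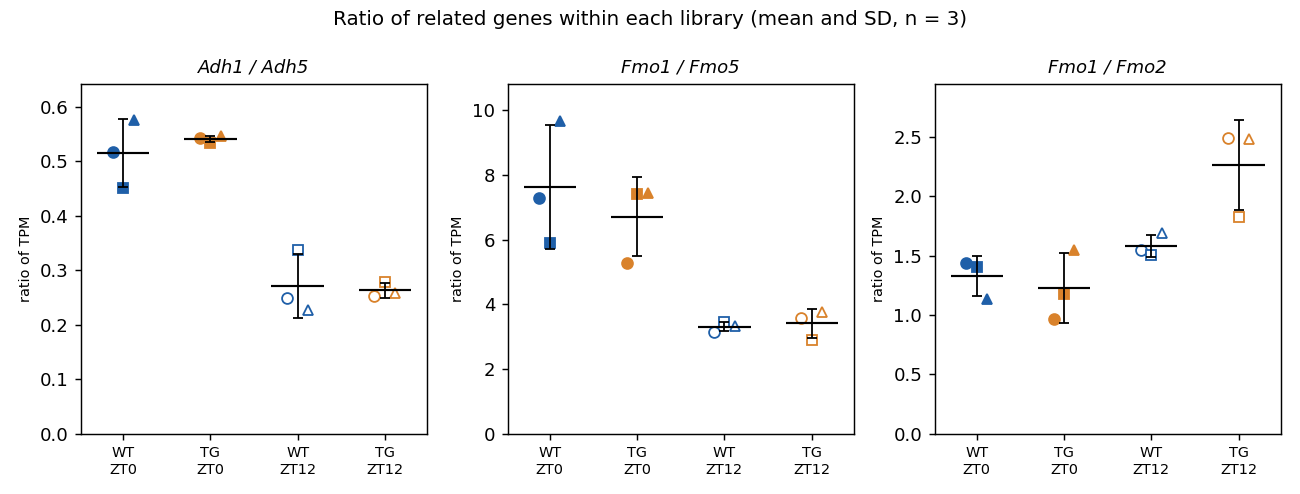
Ratio of TPM between related genes within each of the 12 libraries (linear axes from 0; filled symbols ZT0, open symbols ZT12; lines and bars are the mean and SD of 3 libraries). The ratios of Adh1 to Adh5 (0.451 to 0.575 against 0.227 to 0.338) and of Fmo1 to Fmo5 separate ZT0 from ZT12, and the ratio of Fmo1 to Fmo2 is highest in TG ZT12.

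The aldehyde-oxidizing enzymes overlapped between times. Aldh2 (chr5:121570316-121593824, minus strand), the mitochondrial enzyme that clears acetaldehyde, had the highest mean level of the 9 genes, at 40.3 to 72.7 TPM at ZT0 and 22.2 to 45.8 TPM at ZT12. Both extremes of Aldh2 came from libraries that stand apart in most genes, WT ZT0 replicate 2 and TG ZT12 replicate 1, and its difference of log2(TPM + 1) over both genotypes, -0.35 (SE 0.18), was -0.07 without them. Aldh1a1 (chr19:20601982-20643462, plus strand), the cytosolic enzyme that makes retinoic acid from retinaldehyde, ranged from 25.3 to 35.4 TPM at ZT0 and from 13.6 to 45.4 TPM at ZT12. Its ZT12 range enclosed its ZT0 range. The difference of log2(TPM + 1) was 0.10 (SE 0.33) in WT and -0.24 (SE 0.33) in TG, and in TG it was 0.20 without TG ZT12 replicate 3, the library with the lowest value. Aox1 (chr1:58029969-58106410, plus strand), the aldehyde oxidase, stood at 2.45 to 3.81 TPM at ZT0 and at 1.63 to 3.84 TPM at ZT12, with a difference of -0.22 (SE 0.15) over both genotypes.

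**Figure D3:**
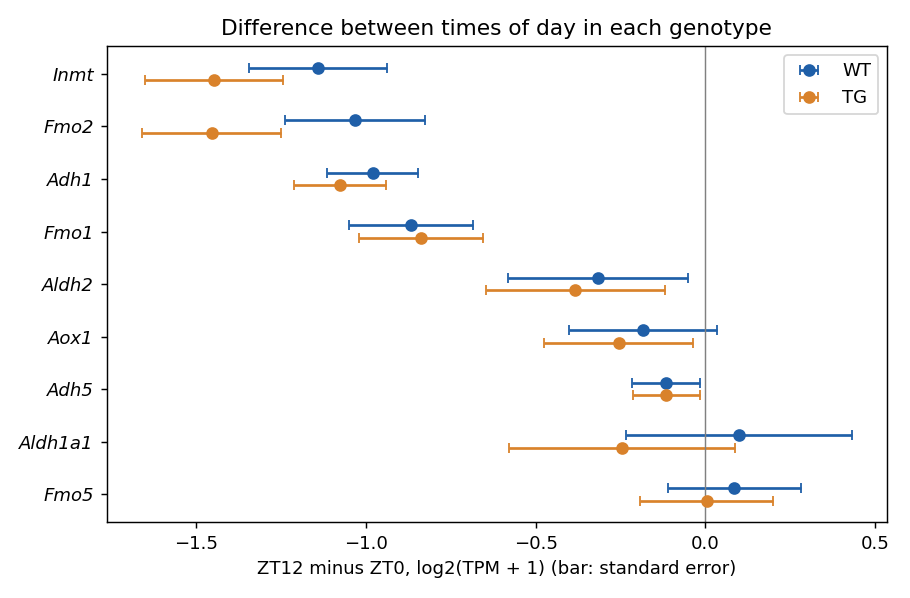
ZT12 minus ZT0 of log2(TPM + 1) for each gene in WT and TG (points; bars are the standard error from the fit of 12 libraries). Inmt, Fmo2, Adh1 and Fmo1 lie between -1.45 and -0.84 in both genotypes, and the other 5 genes lie nearer to 0.

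Over all genes tested, 0.989% (103 of 10415) had every ZT0 library above every ZT12 library, and 0.538% had the reverse. Among the 9 genes the count was 4, and this contrast had chosen them. With the genotypes apart, 4 of 9 had no overlap in WT (5.2% of all genes) and 5 of 9 in TG (3.87%), Adh5 being the addition. Ranked over all genes by ZT12 minus ZT0 of log2(TPM + 1) over both genotypes, Inmt was 12 from the lowest, Fmo2 13, Adh1 20 and Fmo1 39. The median of the 9 genes was -0.35, which is the value of Aldh2, and that of all genes was -0.03. Leaving out both libraries that gave the extremes of Aldh2 put Aldh2 at -0.07. The middle value of the 9 was then that of Aox1, -0.10. The median of the 9 thus depended on those libraries.

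**Figure D4:**
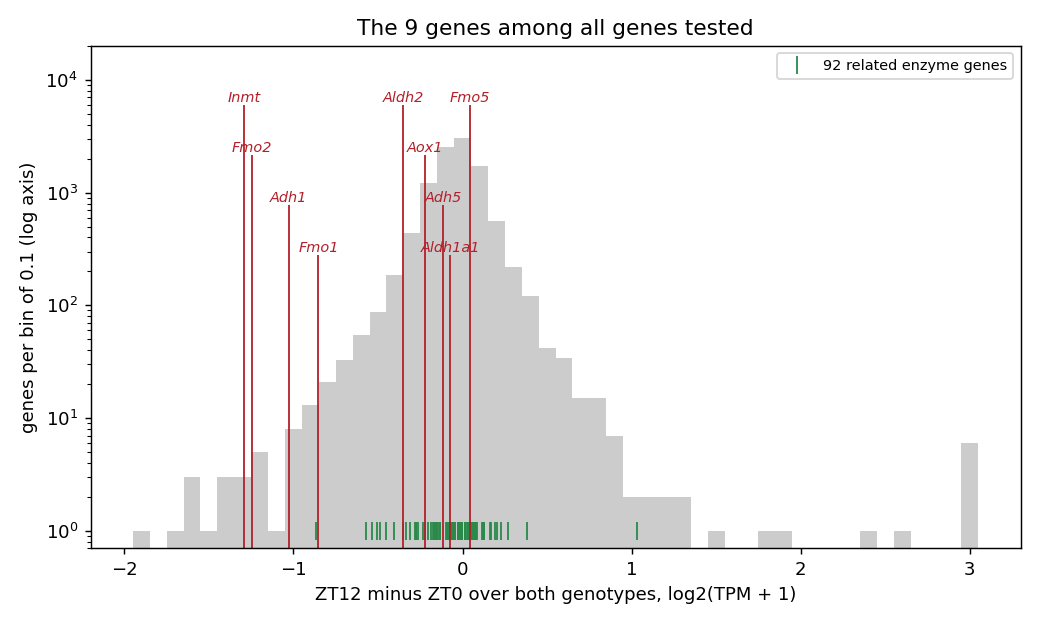
Number of genes (log axis) by ZT12 minus ZT0 of log2(TPM + 1) over both genotypes, in bins of 0.1 for all 10415 genes tested, with values beyond 3 drawn at 3; red lines mark the 9 genes and green ticks 92 related enzyme genes. Inmt, Fmo2, Adh1 and Fmo1 stand in the sparse left tail, and the median of the 92 related genes is -0.02.

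Facts of the libraries that bear on these values are as follows. TPM times transcript length came out as whole reads for at least 99.8% of judged values, and the reads in listed genes summed to 9214187 to 13150226 a library at ZT0 and 13127289 to 20158035 at ZT12. Depth thus differed with time, and its part in the values was not tested. The 9 genes rested on 63 to 2193 reads a library. WT ZT0 replicate 2 had a median correlation of 0.946 with the other libraries, against 0.975 to 0.985 for the rest. It was the highest of the ZT0 libraries in 6 of the 9 genes and in 68.3% of all genes, and TG ZT12 replicate 1 was the lowest of the ZT12 libraries in 5 of the 9 and in 65.9% of all genes. Without both libraries ZT12 minus ZT0 over both genotypes was -1.03 for Adh1, -1.24 for Inmt, -1.11 for Fmo2 and -0.71 for Fmo1. The library kit does not mark strand, so a gene and an antisense neighbour that overlaps it would share reads.

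Markers of other cells were read beside the 4 genes, since in bulk muscle fewer cells of a type and less RNA per cell cannot be told apart. The 9 markers of muscle fibres were all listed and summed to 102870 to 120240 TPM at ZT0 and 108235 to 120029 TPM at ZT12. All 12 markers of fibro-adipogenic cells, the connective tissue cells of muscle, were listed, and their sum was 944 to 1291 TPM at ZT0 and 944 to 1333 TPM at ZT12. None of the 12 had its ZT0 libraries all above its ZT12 libraries, against 0.989% of all genes. Of the 12, 2 were lower at ZT12 in sign, with a median difference of 0.11 on the log2(TPM + 1) scale. Adipocyte markers (7 of 9 listed) summed to 217 to 657 TPM at ZT0 and 233 to 704 TPM at ZT12. Of the 7, 6 were lower at ZT12 in sign (median -0.19). Endothelial markers (8 of 8) summed to 67.1 to 129.6 TPM at ZT0 and 66.3 to 106.9 TPM at ZT12. Of the 8, 1 was lower in sign (median 0.14). Macrophage markers (6 of 6) summed to 20.3 to 66.8 TPM at ZT0 and 22.2 to 57.7 TPM at ZT12. Of the 6, 4 were lower in sign (median -0.02). Of 4 satellite cell markers only Vcam1 was listed, lower at ZT12 in sign. Its level was 8.172 TPM in WT ZT0 replicate 2 and 0.957 to 1.282 TPM in the rest of the ZT0 libraries. At ZT12 it was 0.851 to 1.577 TPM. By medians the direction was the reverse, with 1.1735 TPM at ZT0 and 1.197 TPM at ZT12. Of 11 hepatocyte markers only Cyp2e1, which adipocytes also express, was listed. It stood at 5.02 to 21.7 TPM at ZT0 and 2.17 to 20.0 TPM at ZT12. None of 5 lymphocyte markers was listed. Listing turned on a single library, the first of WT ZT0, and does not show that an unlisted marker was absent from the others. Of the unlisted hepatocyte and lymphocyte markers, 0 were found to lack reads in the authors' deposited tables. Schwann cell markers (5 of 6 listed) summed to 86.6 to 144 TPM at ZT0 and 27.4 to 126 TPM at ZT12, with 4 of 5 lower at ZT12 in sign and a median difference of -0.45 on the log2(TPM + 1) scale. Smooth muscle markers were lower at ZT12 in sign in 5 of 5 (median -0.08), while slow fibre markers (7 of 7 listed, median 0.42) and tendon markers (5 of 6 listed, median 0.42) were all higher in sign. The median difference of all genes was -0.03 on the same scale, and the share of all genes lower in sign was not computed. Over both genotypes limma called 0 of the 71 markers tested for time, where 1.02% of all genes passed. Of the 71, 9 had a limma unadjusted p under 0.05, where 7.35% of all genes did. The part of these cell types in the values of the 4 genes was not tested.

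Red cell markers (5 of 5 listed) reached far higher levels in 4 of the 6 ZT12 libraries, with sums of 86.2 to 163 TPM at ZT0 and 145 to 4565 TPM at ZT12. Replicate 3 of WT ZT12 and of TG ZT12 had the low sums of 176 and 145 TPM. In these 2 libraries Adh1 stood at 8.20 and 8.08 TPM, Inmt at 13.4 and 9.81 TPM, Fmo2 at 2.72 and 1.95 TPM and Fmo1 at 4.58 and 4.83 TPM. The part of blood in the values was not tested.

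Genotype was tested with limma over all 10415 genes. None of the 9 genes passed at a Benjamini-Hochberg adjusted p under 0.05 at ZT0, at ZT12 or over both times, where 0% of all genes passed in each. Limma gave 117, 99 and 166 genes an unadjusted p under 0.05 in these comparisons, and limma-voom on the recovered reads called 0 genes with 125, 191 and 215. No member had its WT and TG libraries apart at ZT0 or at ZT12, against 4.62% and 4.79% of all genes. Nfil3 in muscle, the gene of the transgene, stood at 16.9, 18.7 and 16.0 TPM in WT ZT0 and at 20.3, 13.6 and 14.2 TPM in TG ZT0. At ZT12 it stood at 7.40, 14.0 and 14.0 TPM in WT and at 7.96, 20.9 and 11.6 TPM in TG, so the genotypes overlapped at both times.

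Adh1 had the closest estimate to 0, with TG minus WT over both times of -0.04 on the log2(TPM + 1) scale (SE 0.09, 95% interval -0.23 to 0.16, limma adjusted p 0.935). For Adh5 it was -0.07 (95% interval -0.21 to 0.08), for Inmt -0.09 (-0.41 to 0.22) and for Fmo1 -0.16 (-0.43 to 0.11), each with a limma adjusted p of 0.929. Aldh1a1 had the widest interval, -0.73 to 0.27 around -0.23. All 9 estimates were below 0, as were those of 83.8% of all genes, and the median of the 9 was -0.16 against -0.09 for all genes. With median-of-ratios scaling the median of all genes at ZT0 moved from -0.10 to -0.002, and the signs of Inmt, Adh1 and Adh5 over both times turned positive. An interval around 0 does not show that the genotypes are alike.

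Fmo2 came nearest to a difference. At ZT12 its TG libraries, listed above, had a mean of 2.05 ± 0.742 TPM against 3.20 ± 0.533 TPM in WT (SD, n = 3 each), with the highest TG value above the lowest WT value. TG minus WT was -0.48 (SE 0.21, limma unadjusted p 0.0378, adjusted p 1.00) at ZT12 and -0.06 (SE 0.21) at ZT0. The interaction of genotype and time was -0.42 (SE 0.29, limma unadjusted p 0.171, adjusted p 1.00), so the difference between times was not shown to depend on genotype. Without TG ZT12 replicate 1 the ZT12 estimate was -0.31. For Inmt the interaction was -0.31 (95% interval -0.94 to 0.32) and for Adh1 -0.10 (-0.51 to 0.32). The authors' deposited tables hold values drawn towards each gene's mean, so their fold changes are shrunken and are not set against those above. In the authors' deposited table the log2 fold change of TG over WT was 0.05 for Inmt at ZT0 and -0.03 at ZT12, and -0.02 for Fmo2 at ZT12, with 0 genes of adjusted p under 0.05 among 13549 at ZT0 and 12930 at ZT12.

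**Figure D5:**
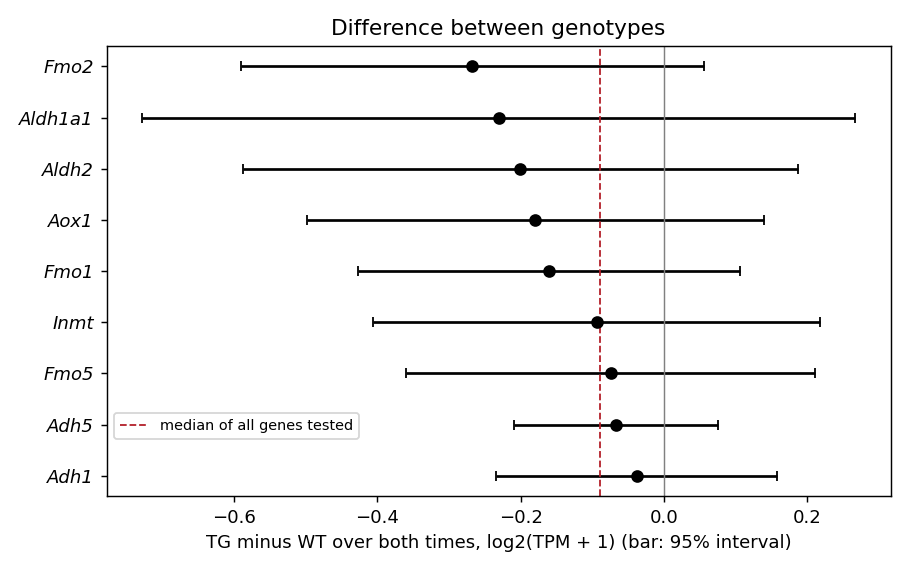
TG minus WT of log2(TPM + 1) over both times for the 9 genes (points; bars are 95% intervals from limma; the dashed line is the median of all genes tested, -0.09). Every interval includes 0, from Adh1 (-0.23 to 0.16) to Aldh1a1 (-0.73 to 0.27).

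The other genes of these pathways were taken from 10 lists that hold 142 genes beside the 9, of which 92 could be tested. With limma, 0 of the 92 passed for time in WT, in TG or over both genotypes, where 0.115%, 0.154% and 1.02% of all genes passed. Over both genotypes 16 of the 92 had an unadjusted p under 0.05 (17.4%, against 7.35% of all genes), and limma-voom called 1, Mocs1. None of the 92 had all ZT0 libraries above all ZT12 libraries, against 0.989% of all genes. A count of 0 among 92 is near that share and does not set them apart. For genotype over both times limma called 0 of the 92, where 0% of all genes passed. A limma unadjusted p under 0.05 was given to 3 of the 92 (3.26%, against 1.59% of all genes).

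By family, Fmo4, Fmo6 and Fmo9 had no reads in the authors' deposited tables of either time. None of the 4 other alcohol dehydrogenases was in the TPM table. Among aldehyde dehydrogenases 9 of 18 could be tested, and the highest, the mitochondrial amino acid enzymes Aldh4a1 and Aldh6a1, had differences between times of -0.13 (SE 0.10) and -0.13 (SE 0.11). Among molybdenum enzymes and their cofactor genes 8 of 14 could be tested, and their highest, Marc2 and Mocs2, had differences of -0.003 (SE 0.09) and 0.12 (SE 0.07).

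Among the other small-molecule methyltransferases 10 of 14 could be tested. Gamt, the last enzyme of creatine synthesis, stood at 20.6 to 23.1 TPM as group means and did not pass the test. Mat2a and Mat2b, subunits of the enzyme that makes S-adenosylmethionine, differed between times by -0.03 (SE 0.15) and -0.02 (SE 0.07). Of the lists for microsomal oxidation, retinoids, formaldehyde and glutathione handling, and conjugation, with 15, 13, 10 and 18 genes tested, the highest genes were Cyb5r1 and Cyp27a1, Rxra and Rdh14, Hagh and Chac1, and Mgst3 and Gstp1. Their differences ran from -0.26 (SE 0.09) for Cyp27a1 to 1.03 (SE 0.46) for Chac1, with limma adjusted p of 0.277 and 0.659.

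The related genes with the smallest adjusted p were chosen after their values were seen. Sult1a1, a phenol sulfotransferase, stood at 7.42 to 10.7 TPM at ZT0 and at 4.52 to 7.89 TPM at ZT12 (difference -0.51, SE 0.11, limma adjusted p 0.0607). Gstt1, a glutathione transferase, differed by -0.49 (SE 0.12, limma adjusted p 0.107) and Cyp4b1, a cytochrome P450, by -0.57 (SE 0.16, limma adjusted p 0.17). None of these 3 passed the test, though Sult1a1 and Cyp4b1 each did in 4 of the alternative settings, among them the replicate block for both.

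Genes whose pattern over the 12 libraries was most like that of a member were found by Pearson's r of log2(TPM + 1) among 6124 genes of at least 5 TPM on average. The 12 libraries share the split between times, so these values describe likeness and carry no test. For Adh1 the nearest were Mid1ip1, a lipogenic regulator (r = 0.97, Spearman's rho = 0.74), Glul, glutamine synthetase (r = 0.95, rho = 0.82) and Plekhh3 (r = 0.95, rho = 0.82). Glul stood at 109.7 to 161 TPM at ZT0 and at 31.5 to 65.0 TPM at ZT12. Glul was also the second nearest to Fmo2 (r = 0.95, rho = 0.89), after Adamtsl4 (r = 0.97, rho = 0.95) and before Dusp7, a MAP kinase phosphatase (r = 0.95, rho = 0.94).

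For Inmt the nearest were Tfeb, a regulator of lysosome genes (r = 0.96, rho = 0.96), Tle4 (r = 0.96, rho = 0.86) and Lrrc38 (r = 0.95, rho = 0.95), and for Fmo1 they were Atg101, an autophagy gene (r = 0.95, rho = 0.97), Tspan4 (r = 0.93, rho = 0.88) and Snrpb (r = 0.93, rho = 0.97). The 5 members that overlapped between times had other neighbours. Fmo5 was nearest to Dnajb11 (r = 0.97, rho = 0.98), Herc4 and Tmem55b, and Aldh2 to Gart (r = 0.96, rho = 0.76), Btbd2 and Irf2bpl. Adh5 was nearest to Pcbd2 (r = 0.96, rho = 0.87), Nme3 and Ssna1, Aox1 to Nfs1 (r = 0.94, rho = 0.88), Aen and Kcna7, and Aldh1a1 to Coq2 (r = 0.90, rho = 0.66), Adamtsl5 and Clip4. Within groups, after each group mean was taken off, the pairs of Adh1 with Inmt and with Fmo1 had r = -0.32 and r = 0.35. Fmo2 with Fmo1 had r = 0.69 (12 libraries, described with no test). That value was not particular to the pair: Fmo2 with Aox1 had r = 0.96 and Fmo1 with Aldh2 had r = 0.86. WT ZT0 replicate 2 was the highest ZT0 library in 68.3% of all genes. TG ZT12 replicate 1 was the lowest ZT12 library in 65.9%. The part of these libraries in the r values was not tested.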

How the data were processed

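The members and gene lists were chosen with earlier results of these data known. Tools used upstream were bcl2fastq, STAR, DESeq2 and HOMER 4.11.1 on the mm10 build, per the submitters' processing notes. The authors deposited TPM values for 10475 genes, all of at least 1.0 TPM in WT ZT0 replicate 1. Genes below 1.0 TPM there are therefore missing, and 134 listed genes are at 0 elsewhere. Per the file headers, the authors' 2 other tables hold log2 values, p-values and adjusted p-values. Whole reads were recovered from TPM times length (within 0.1 read, judged under 500 reads).

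The plan allowed for counts. The files used here hold TPM, so its TPM branch was used: limma 3.58.1 with trend (R 4.3.3) on log2(TPM + 1), 12 libraries and 4 group means, or an additive model for contrasts over both times or genotypes. Genes needed 1 TPM in 3 libraries, and calls an adjusted p under 0.05. Deviations from group means in 18 same-numbered pairs had r from -0.35 to 0.29 (median 0.06, against -0.02 for other pairs), so the numbers were not taken as pairing. All 9 members are named, with up to 2 genes of highest mean TPM per related list, or called ones, and the 3 nearest patterns of each member. The values of 2 related genes are not reported here. Alternatives were scaling (median-of-ratios, upper-quartile), filters (none, 5 TPM), pseudocounts (0.1, 5), limma-voom, the replicate block, removal of the 10 highest genes, a fit of only the 2 groups compared, and each library left out. Chosen after seeing the data were quantile normalization, and leaving out WT ZT0 replicate 2 with TG ZT12 replicate 1. Fits were tested on simulated data. Tables used pandas 2.3.3 and numpy 2.4.6, and figures matplotlib 3.10.9, in Python 3.11.15.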

Additional observations from a re-analysis of the deposited data

How the results depend on the processing

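Fmo1, Fmo2, Inmt and Adh1 kept lower values at ZT12 in every alternative run, over both genotypes from -1.10 to -0.80 for Adh1, -1.38 to -1.08 for Inmt, -1.52 to -0.71 for Fmo2 and -0.98 to -0.56 for Fmo1 (log2). No member passed for genotype in any alternative. Depth limits Fmo5 most, at 63 to 185 reads.

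The causes of the following shifts were not tested. Genes called for ZT12 against ZT0 in WT numbered 12, and 55 with median-of-ratios scaling, 47 with upper-quartile scaling, 22 without the 10 highest genes, 56 with limma-voom, 52 with quantile normalization, 73 without the 2 doubted libraries (WT ZT0 replicate 2 together with TG ZT12 replicate 1), and 4 (without WT ZT0 replicate 1) to 35 (without TG ZT12 replicate 1) with single libraries left out. In TG the count was 16, and in the same order of settings 31, 29, 28 (limma-voom), 33 and 71, with 3 in the 2 groups alone and 6 (without TG ZT0 replicate 2) to 21 with single libraries left out. Over both genotypes it was 106, and 233, 220, 217 (limma-voom), 217 (quantile) and 464, with 70 (without WT ZT12 replicate 2) to 160 (without TG ZT12 replicate 1). For TG against WT at ZT0 the count of 0 became 1 in the 2 groups alone and 0 to 1 with single libraries left out (1 without TG ZT12 replicate 3), and at ZT12 it became 2 without both doubted libraries.

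Related genes called for time over both genotypes, drawn from Aldh18a1, Cyp4b1, Dhrs3, Gsta3, Mocs1, Sult1a1 and Xdh, numbered 0, and 3 with median-of-ratios and with upper-quartile scaling, 1 with the 5 TPM filter, 1 without the 10 highest genes, 1 with limma-voom, 4 with quantile normalization, 3 without both doubted libraries and 0 to 1 with single libraries left out. Under the replicate block the count was 3 (Cyp4b1, Gsta3 and Sult1a1). On average 6 of the 12 libraries correlated best with their own number, which the labels do not give as a pairing. Same-numbered pairs had a median r of 0.06 against -0.02 for other pairs, and pairing was not tested.

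Genotype estimates that turned positive, none of them called, were as follows over both times. Fmo5 became 0.045 with quantile normalization, and -0.157 to 0.0825 with libraries left out. Inmt became 0.0045 with median-of-ratios and 0.00092 with upper-quartile scaling. Adh1 became 0.058, 0.055 and 0.056 with median-of-ratios, upper-quartile and quantile scaling, and -0.0708 to 0.0320 with libraries left out (positive without WT ZT12 replicate 2). Adh5 became 0.034, 0.030 and 0.0028 with the same scalings. Aldh2 ran from -0.283 to 0.0794 with libraries left out, positive only without both doubted libraries. Fmo2 at ZT0 became 0.044, 0.055 and 0.091 with these scalings, and -0.165 to 0.0904 with libraries left out (highest without TG ZT0 replicate 3).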
